A study of Mus musculus and Homo sapiens with 22 samples.

Results

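The transcripts described here encode 10 subunits of the Polycomb repressive complexes, Ezh1, Ezh2, Eed, Suz12, Jarid2, Mtf2, Rnf2, Ring1, Cbx7 and Pcgf6. The genes were taken by name and not by any measured value, and all 10 were found among the 56196 genes of the count files. Polycomb proteins keep developmental genes silent and act in 2 kinds of complex. Polycomb repressive complex 2 (PRC2) methylates histone H3 through Ezh2 or its paralogue Ezh1, needs Suz12 and Eed for activity, and is guided to chromatin by accessory subunits such as Jarid2 and Mtf2. Polycomb repressive complex 1 (PRC1) attaches ubiquitin to histone H2A through Rnf2 (also called Ring1b) or its paralogue Ring1. Its canonical form holds a chromodomain protein such as Cbx7, which binds the methylated histone H3, whereas Pcgf6 defines a variant form without a CBX subunit. In embryonic stem cells both complexes lie on the promoters of lineage regulators.

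N6-methyladenosine (m6A) is a modified base of messenger RNA, written by a complex whose catalytic subunit is Mettl3. It is read by YTH-domain proteins and is known to shorten the life of many transcripts. It lies mostly within the motif DRACH, in which the first base is A, G or T, the second is A or G, the third is the A that is modified, the fourth is C and the last is A, C or T. Sites accumulate around stop codons, in 3′ UTRs and in long internal exons.

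Sites were mapped by miCLIP2, in which an m6A antibody is crosslinked to poly(A)+ RNA and the modified base is read at single-nucleotide resolution, followed by the classifier m6Aboost. The lists of sites came from mouse embryonic stem cells (mESCs) of wild type (WT), from commercial mouse heart RNA and from HEK293T, a human embryonic kidney cell line. The heart lists rest on 1 library each, with inputs that the labels give as 1, 300, 100 and 50 µg, while the study's methods and the list names give the last 3 in ng, which is used below. The mESC list joins 3 replicates, of which replicate 1 was prepared in 2 technical parts, and the HEK293T list joins 4, so no list gives a spread between replicates or a read depth. RNA was counted per gene in 3 libraries of WT mESCs and 3 of Mettl3 knockout (KO) mESCs, both grown with serum and LIF. The sources used here give neither the part of Mettl3 that was deleted nor the number of clones, so a difference between the WT and KO lines that has nothing to do with Mettl3 cannot be told apart from the knockout. The Y-linked gene Uty was near 0 in every WT library and abundant in every KO library, with its counts given among the erasers. The study calls the mESC miCLIP2 replicates biological and describes the RNA-seq as made from the same samples, but does not say whether these came from separate cultures, so part of the spread behind the p-values may be technical.

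Each RNA-seq library held between 22746733 and 27254245 reads counted in genes. The targeted gene, Mettl3, was counted 560, 698 and 612 times in the WT libraries and 462, 669 and 457 times in those of KO. Its log2 fold change of -0.50 ± 0.14 (SE) did not pass the threshold of an adjusted p of at most 0.01 (edgeR quasi-likelihood test, adjusted p = 0.0134). DESeq2 called Mettl3 (DESeq2 adjusted p = 0.00661), as did a fit that blocked on replicate number (edgeR adjusted p = 0.00281). Over the alternatives its adjusted p ran from 0.00281 to 0.0768. The pluripotency markers Nanog, Pou5f1 and Sox2 were abundant in both lines, with Nanog at 679 CPM (counts scaled to the size of the library) in WT and 648 in KO on average, and did not pass the test. Of the 8 pluripotency markers, 3 fell in KO (Tdgf1, Dppa5a and Utf1), and with the replicate block 3 fell and 1 rose. Over all genes tested 29.7% were called (12.6% lower and 17.1% higher), and 43.5% with that block. The summed level of the 8 markers was 4159 to 4428 CPM in WT and 2902 to 3031 in KO. Dppa5a had 957 CPM in WT and 298 in KO on average, and Tdgf1 had 903 and 229. Fibroblast (feeder) markers summed to 10.4 to 15.2 CPM in WT and 13.5 to 15.1 in KO, with Thy1 called higher and Pdgfrb lower among 4 of 10 tested and with Dcn, Lum and Twist2 at no more than 3 counts in any library. Primitive endoderm markers summed to 8.03 to 10.9 CPM in WT and 35.3 to 48.2 in KO, where Dab2 and Foxa2 were called higher and Gata4 lower among 6 of 8 tested. Foxa2, with at most 2 counts in a WT library, passed the filter on low counts only through the KO libraries and so had to differ. The part of these markers in the differences given below was not tested. Of 8 cardiomyocyte markers, 6 held sites in the list from 1 µg of heart RNA, with 195 in Ttn and 23 in Ryr2, and 0 held a site in the mESC list. In the RNA-seq libraries 5 of these 8 markers passed the filter and Ttn was called, higher in KO.

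All 10 Polycomb transcripts held predicted m6A sites in the mESC list. The mESC list held 37 sites in their exons, where 42.1% of 15704 genes expressed in the RNA-seq libraries held at least 1 site. The 15704 genes include all that passed the filter on low counts, and this share was not matched for RNA level. Of the 37 sites, 19 lay in 3′ UTRs, 16 in coding sequence, 1 in a 5′ UTR and 1 in an exon of a noncoding transcript. The central base and its neighbours formed a DRACH motif at 35 of the 37. On the longest coding transcript of each gene, 27 of 36 sites fell in the last exon and 14 lay within 200 nt of the stop codon. Each of the 37 sites lay in exons of no other gene. The number per gene ran from 1 in Ezh1, Ezh2 and Eed through 2 in Rnf2 and Pcgf6, 3 in Ring1, 6 in Jarid2 and Mtf2 and 7 in Suz12 to 8 in Cbx7. The 10 transcripts offered 703 DRACH motifs, of which 34 (4.84%, Wilson 95% interval 3.48 to 6.68) held a site, against 4.52% (4.46 to 4.57) over the 6580 coding genes with a site in mESCs. The interval of the Polycomb transcripts includes the value of all genes with sites.

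The list from 1 µg of heart RNA held 26 sites in 6 of the 10 genes, where 50.3% of the same 15704 genes, which are those expressed in mESCs and not those of heart, held a site. They lay in Ring1 (6 sites), Cbx7 (5), Suz12, Jarid2 and Mtf2 (4 each) and Ezh1 (3), and none was listed in Ezh2, Eed, Rnf2 or Pcgf6. RNA levels in heart were not analysed here, and a gene without a listed site may be too little expressed to give a peak. The lower inputs gave 4 sites in Ezh1, Suz12 and Cbx7 at 300 ng, all of them also in the list from 1 µg, and 0 at 100 ng and 50 ng, where the whole lists shrank to 1112 and 248 sites. At 18 positions a site was listed in both mESCs and heart at 1 µg. These made up 48.6% of the mESC sites and 69.2% of the heart sites of the Polycomb genes, and the same shares over the complete lists were 59.6% and 32.7%. All 10 genes had mESC sites, whereas the complete heart list includes genes with none there, such as Ttn (195 sites in heart and 0 in mESCs). The shares were not matched for expression and are not like for like. 

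**Figure D1:**
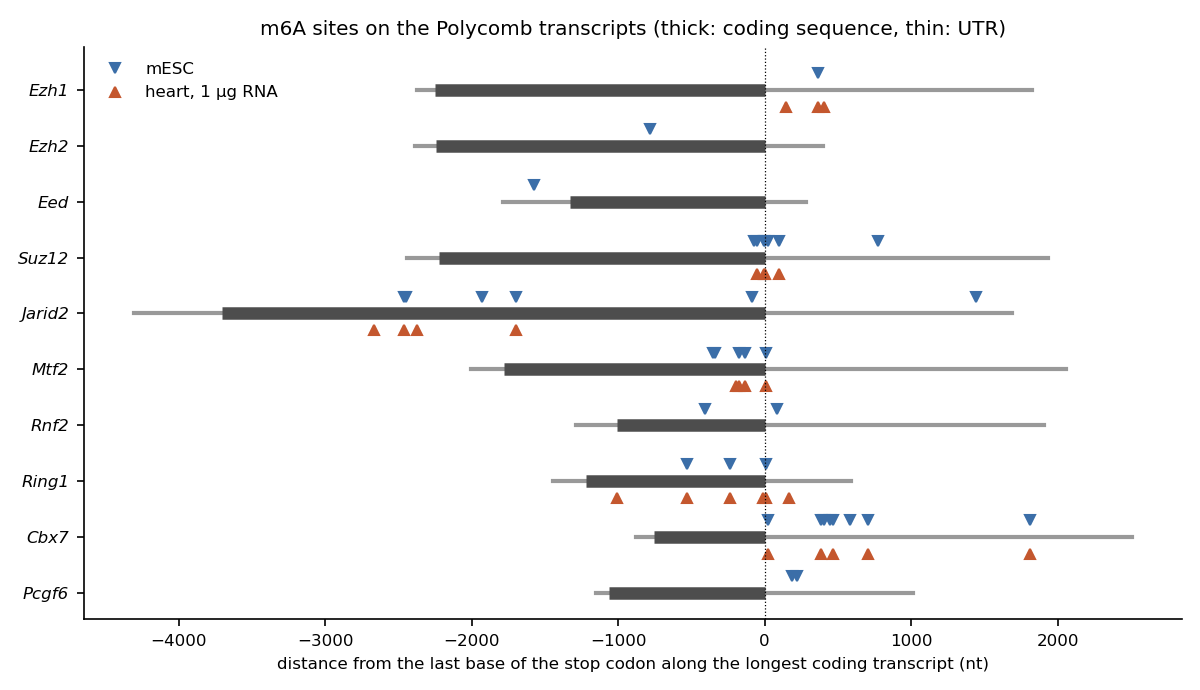
Positions of m6A sites along the longest coding transcript of each Polycomb gene, in nt from the last base of the stop codon, with coding sequence as thick bars, UTRs as thin lines, mESC sites as triangles above and heart sites (1 µg of RNA) as triangles below each transcript. Sites of Suz12 gather at the stop codon, all 8 mESC sites of Cbx7 lie in its 3′ UTR, and Ezh2, Eed, Rnf2 and Pcgf6 have mESC sites only.

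Suz12, the scaffold subunit of PRC2, had the densest cluster. Of its 7 mESC sites, 6 lay between 73 nt before and 100 nt after the last base of the stop codon, all within its last exon, exon 16. The windows of 21 bases around the 3 cluster sites with the highest mESC scores are printed below because 2 of them overlap and their motifs flank the stop codon (the motif around the modified A is in capitals, GRCm38, plus strand).
Suz12, 73 nt before the end of the stop codon, chr11:80032107-80032127: agtgaaacTAACTcaaaagag
Suz12, 6 nt before, chr11:80032174-80032194: agaaacaaAAACTctgagaac
Suz12, 3 nt after, chr11:80032183-80032203: aactctgaGAACTtgccccat
The scores of m6Aboost run up to 1, and the site 6 nt before the end of the stop codon scored 0.937, above 97.0% of the mESC list. The site 3 nt after it scored 0.909 and the site 73 nt before it 0.841. Heart held 4 of the 7 positions, namely those 50 and 6 nt before and 3 and 100 nt after the stop codon. The last of these is not a DRACH motif.
Suz12, 100 nt after, chr11:80032280-80032300: ttaatcatGGATTgggaacag
It was listed in both tissues, with a score of 0.675 in mESCs, and was 1 of only 2 sites outside DRACH among the 37 of mESCs.

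The other core subunits of PRC2 carried a site each in mESCs. The site in Ezh2, the main histone methyltransferase, lay in coding sequence in exon 12 of 20 and had a score of 0.528, above only 4.08% of the list. The site in Eed, the subunit that binds the methylated histone, lay in the 5′ UTR in exon 1 with a score of 0.575. Ezh1, the paralogue of Ezh2, had its site in the 3′ UTR, 363 nt after the stop codon, with a score of 0.770. It was the position of Ezh1 shared with heart, where it ranked above 81.1% of the heart list.
Ezh2, exon 12, chr6:47543969-47543989, minus strand: gaggatgtAGACActcctcca
Ezh1, 3′ UTR, chr11:101192566-101192586, minus strand: catgtcacTGACTgtgctcag
Heart added sites 146 and 409 nt after the stop codon of Ezh1, and the first of them was also found at 300 ng.

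The accessory subunits of PRC2 differed in where their sites lay. In Mtf2, which binds DNA through its extended homologous domain, 5 of 6 mESC sites lay in exon 15, the last one, from 349 nt before to 8 nt after the last base of the stop codon. The sixth had the highest score of all 37 sites (0.964) and lay far upstream, in an exon of a noncoding transcript of the gene.
Mtf2, noncoding transcript, chr5:108069338-108069358, plus strand: tccatgatGGACTgtactctg
In Jarid2, a DNA-binding partner of PRC2, 4 of 6 mESC sites lay in long internal exons, 3 in exon 7 (1033 nt) and 1 in exon 8 (503 nt). The other sites of Jarid2 lay 85 nt before and 1447 nt after the stop codon. Heart shared the position in exon 8 and 1 in exon 7, and added 2 more in exon 7. The second site outside DRACH, with the motif GCACT, lay in the same exon of Jarid2, 14 nt downstream of a DRACH site, and had a score of only 0.524.

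Cbx7 had the most mESC sites of the 10, although other PRC1 genes such as Mga (32) and Cbx6 (9) had more. All 8 of its mESC sites lay in the 3′ UTR, from 22 to 1812 nt after the stop codon and within its 2667-nt last exon, and 5 of them were also listed in heart. The windows below are those of the 4 with the highest scores in mESCs (0.930, 0.911, 0.903 and 0.899), each of which was shared with heart, and the second and the last were found at 300 ng as well.
Cbx7, 22 nt after, chr15:79918287-79918307, minus strand: ccctcttaAAACTgtgcttct
Cbx7, 383 nt after, chr15:79917926-79917946, minus strand: tttactatGAACTttccactc
Cbx7, 1812 nt after, chr15:79916497-79916517, minus strand: gtagctctGAACTgctggaaa
Cbx7, 706 nt after, chr15:79917603-79917623, minus strand: cgccaattGGACCaggctttg
The 3 sites of Cbx7 without a heart counterpart lay 409, 448 and 582 nt after the stop codon.

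The catalytic subunits of PRC1 had fewer mESC sites than Cbx7, but Ring1 had the most heart sites of the 10. Per kb of the longest coding transcript, Ring1 held 1.475 mESC sites, against 1.001 in Jarid2, 1.232 in Mtf2, 1.601 in Suz12 and 2.361 in Cbx7. Ring1 had 3 in mESCs, 529 and 237 nt before and 13 nt after the last base of the stop codon, and all 3 were among its 6 heart sites. Their mESC scores were 0.6415, 0.5012 and 0.7731, and the second was above only 0.18% of the mESC list. The heart-only positions of Ring1 lay 1009 and 10 nt before and 164 nt after the stop codon. Rnf2 had 2 mESC sites, 406 nt before and 83 nt after, and none in heart. In Pcgf6 both mESC sites lay in the 3′ UTR, 190 and 225 nt after the stop codon, with scores of 0.823 and 0.809.
Pcgf6, 190 nt after, chr19:47034429-47034449, minus strand: tacactaaAGACTatggaaac
Ring1, 13 nt after, chr17:34021359-34021379, minus strand: tcacaaggGGACAgctggaac

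The human list from HEK293T held 17 sites in the exons of 5 of the 10 genes, where 36.5% of 20046 protein-coding genes held a site. These were JARID2 with 6, MTF2 with 4, EZH1 with 3 and EED and RING1 with 2 each. No site was listed in EZH2, SUZ12, RNF2, CBX7 or PCGF6. RNA levels in HEK293T were not analysed here. SUZ12, EZH2 and RNF2 also have annotated pseudogenes, to which reads of the gene can be assigned, so an empty entry for these genes is uncertain. Of the 17 sites, 10 lay in coding sequence, 5 in 3′ UTRs and 2 in a 5′ UTR, and 16 were DRACH, the other being GGACG in JARID2.

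Mouse and human sites were compared by their windows of 21 bases. A pair counted as matched at 17 or more identical bases. Of the 45 mouse positions listed in mESCs or heart, 8 had a matched HEK293T site, 3 in Jarid2, 3 in Mtf2 and 2 in Ring1. The 3 Jarid2 pairs lay in exons 7 and 8, and 1 window was identical in both species. The 8 matched positions included 7 in coding sequence and 1 in a 3′ UTR, out of 21 and 22 mouse positions in these regions. Of the 8 pairs, 6 are printed, 3 of Jarid2, 2 of Mtf2 and 1 of Ring1 (19 to 21 of 21 bases equal, human windows on GRCh38). The pair of Ring1 that is not printed shared 18 bases. Pairs were matched by identity, so their close agreement follows from the rule.
Jarid2 exon 7, mouse, chr13:44902550-44902570: agcaggttGAACCcaaagtca
JARID2 exon 7, human, chr6:15496456-15496476: ggcaggttGAACCcaaagtca
Jarid2 exon 7, mouse, chr13:44903084-44903104: ccccctccAGACTggcggcca
JARID2 exon 7, human, chr6:15496996-15497016: ccccctccGGACTggcggccc
Jarid2 exon 8, mouse, chr13:44906291-44906311: gcagcaagTGACTgacctcaa
JARID2 exon 8, human, chr6:15500965-15500985: gcagcaagTGACTgacctcaa
Mtf2 exon 15, mouse, chr5:108106763-108106783: attctgaaTAACTtagcagat
MTF2 exon 15, human, chr1:93136845-93136865: attctgaaTAACTtagcagat
Mtf2 exon 15, mouse, chr5:108106943-108106963: tgactgtaGGACTgaacgtaa
MTF2 exon 15, human, chr1:93137025-93137045: tgactgtaGGACTgaacatta
Ring1 exon 5, mouse, chr17:34022439-34022459: ggttctgaAGACTctggtgac
RING1 exon 5, human, chr6:33211384-33211404: ggttcggaAGACTctggtgac

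In Mtf2 the 4 heart sites and the 4 HEK293T sites lay at equal distances, 195, 172 and 133 nt before and 8 nt after the last base of the stop codon. The mESC list lacked the site 195 nt before, and held sites 349 and 335 nt before that had no counterpart in MTF2. The window 133 nt before shared 16 of 21 bases and so fell just short of the rule. In Ring1 both matched sites lay 529 and 237 nt before the end of the stop codon in mouse and human alike. 

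**Figure D2:**
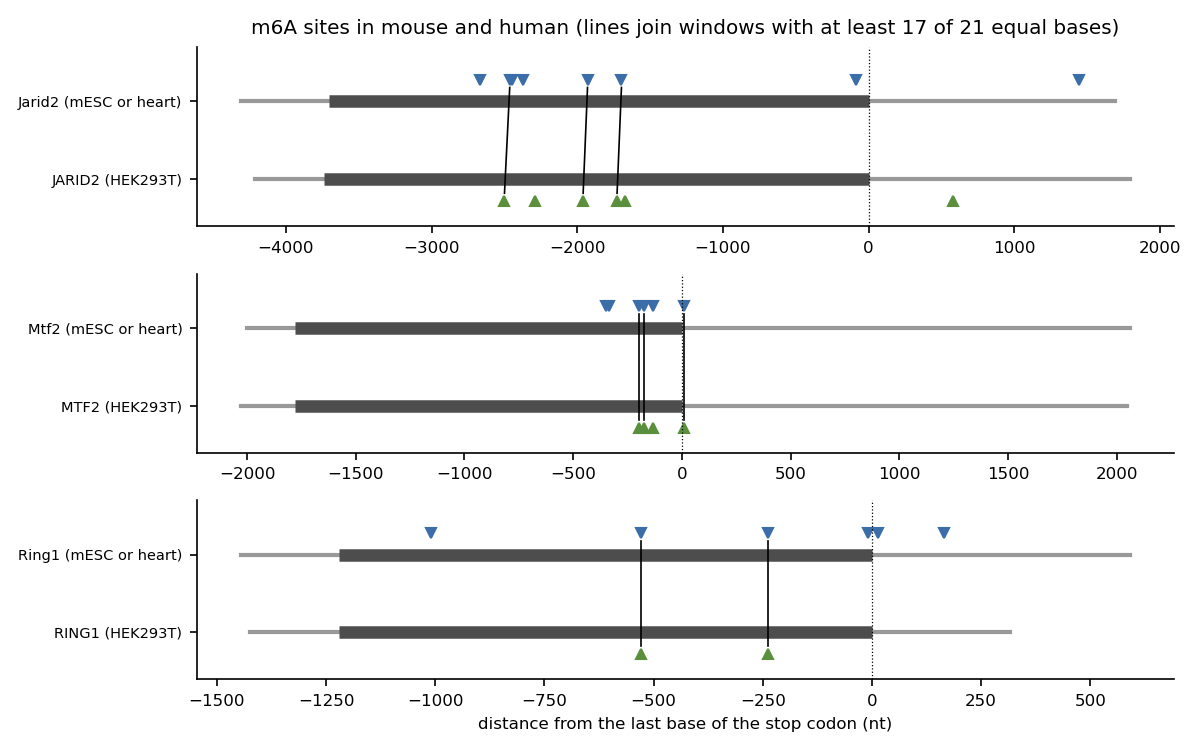
m6A sites of Jarid2, Mtf2 and Ring1 in mouse (mESC and heart combined, upper triangles) and in human HEK293T (lower triangles), in nt from the last base of the stop codon along the longest coding transcript, with coding sequence as thick bars. Black lines join the 8 pairs of windows that share at least 17 of 21 bases, and the lines of Mtf2 and Ring1 are vertical because the distances to the stop codon are equal.

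Conserved sequence did not always come with a listed human site. For 25 of the 45 mouse positions a stretch with at least 17 of 21 equal bases was found in a transcript of the human counterpart, 20 of them in coding sequence. A HEK293T site was listed at the central base of 8. At a further 9 the human stretch kept a DRACH motif but no site was listed there, and at 8 the human base or its neighbours were not DRACH. The stretches with a DRACH motif but no site included 4 positions of Suz12, among them the window 73 nt before the end of the stop codon, which shared 20 of 21 bases with human SUZ12. Those without DRACH included the site of Ezh2, whose human stretch shared 19 of 21 bases. For Cbx7, 1 of 8 positions had a stretch at 17 bases.
Suz12, mouse, chr11:80032107-80032127: agtgaaacTAACTcaaaagag
SUZ12, human stretch without a listed site, central base at position 31998930 of chromosome 17: agtgaaatTAACTcaaaagag
Ezh2, mouse, chr6:47543969-47543989: gaggatgtAGACActcctcca
EZH2, human stretch without a listed site, central base at position 148816717 of chromosome 7: gaggatgtGGATActcctcca

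RNA levels were then compared between KO and WT mESCs. Of the 10 Polycomb transcripts, 3 fell in KO (Cbx7, Ezh2 and Suz12), 1 rose (Ring1) and 6 did not pass the test (edgeR quasi-likelihood test, Benjamini-Hochberg adjustment over 15731 genes). Over all genes tested, 29.7% were called, 12.6% lower and 17.1% higher (2687 higher and 1982 lower calls, against 2937 and 1199 when libraries were scaled by their size only). The median log2 fold change of the 10 was -0.26, and that of all genes was -0.02. In bulk RNA, fewer cells of a type and less RNA per cell cannot be told apart. The same 4 genes were called under each other scaling and filter tried, with DESeq2 and without any of the 6 libraries in turn.

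Cbx7, a chromodomain subunit of PRC1, had the largest fall of the 10. It had 171, 199 and 186 CPM in WT and 90.7, 101 and 90.4 CPM in KO. Every KO library lay below every WT library, and the fitted level in KO was 0.508 times that in WT (log2 fold change -0.98 ± 0.11 SE, adjusted p = 8.49e-05). Ezh2 had 256, 217 and 260 CPM in WT and 148, 120 and 141 CPM in KO, with no overlap between the groups. Its log2 fold change was -0.84 ± 0.12 (SE, adjusted p = 0.000415), a level of 0.558 times that of WT. For Suz12 the WT libraries held 417, 421 and 382 CPM and the KO libraries 259, 258 and 250 CPM. The 3 KO values of Suz12 were closely grouped and all below WT (log2 fold change -0.67 ± 0.10 SE, adjusted p = 0.000557).

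Ring1 went the other way. From 7.79, 8.99 and 6.90 CPM in WT it rose to 15.8, 16.0 and 13.9 CPM in KO (log2 fold change 0.94 ± 0.16 SE, adjusted p = 0.00107). It stayed the least abundant of the 10 in both groups. Its paralogue Rnf2, the main PRC1 ubiquitin ligase of mESCs, had 122, 122 and 137 CPM in WT and 122, 113 and 121 CPM in KO. The log2 fold change of Rnf2, -0.10 ± 0.10 (SE, adjusted p = 0.448), turned to 0.0072 when libraries were scaled by their size only.

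The remaining subunits did not pass the test. Eed came closest, with 163, 138 and 183 CPM in WT and 130, 110 and 137 CPM in KO, values that just failed to overlap, as was the case for 56.1% of all genes tested. Its log2 fold change was -0.36 ± 0.13 (SE, adjusted p = 0.0450), and blocking on replicate number gave a call (adjusted p = 0.00366, the lowest of its alternatives, which reached 0.155), in a fit that called 43.5% of all genes. For Ezh1 the WT libraries were spread widely, at 79.7, 87.6 and 49.3 CPM, around KO values of 56.2, 57.1 and 52.1 CPM (log2 fold change -0.39 ± 0.18 SE, adjusted p = 0.103). Without WT replicate 3, the low one, Ezh1 was called lower in KO (log2 fold change -0.60, adjusted p = 0.000872), and over the alternatives its adjusted p ran up to 0.345. The log2 fold changes were 0.12 ± 0.11 for Jarid2, 0.13 ± 0.12 for Mtf2 and -0.16 ± 0.12 for Pcgf6 (SE), and the groups overlapped for all 3. Of the transcripts with the most mESC sites, Cbx7 (8 sites) and Suz12 (7) fell and Mtf2 and Jarid2 (6 each) were not called. Ezh2, with 1 site, fell, and Ring1, with 3, rose.

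**Figure D3:**
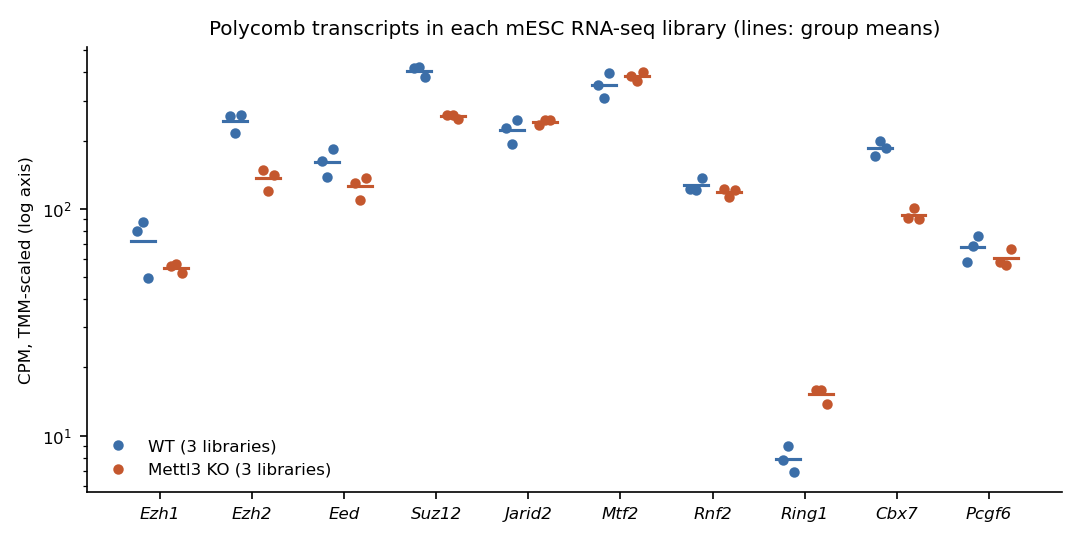
CPM of each Polycomb transcript in the 3 WT and 3 Mettl3 KO libraries on a log axis, with points for libraries and lines for group means. KO points lie below all WT points for Cbx7, Ezh2, Suz12 and Eed and above them for Ring1.

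To compare levels between genes, counts were divided by the length of all exons of the gene and scaled to TPM, so that the values of all genes of a library have the same sum. In WT, Suz12 had the highest level at 223 ± 42.9 TPM (SD, n = 3), followed by Mtf2 (164 ± 8.92), Eed (112 ± 5.02), Ezh2 (97.7 ± 4.61), Rnf2 (82.7 ± 9.90), Cbx7 (77.5 ± 17.3), Jarid2 (61.0 ± 2.45), Pcgf6 (36.3 ± 7.02), Ezh1 (26.7 ± 10.6) and Ring1 (6.65 ± 1.90). The ranges of Rnf2 and Cbx7 overlapped, as did those of Pcgf6 and Ezh1, and the other neighbours in this order did not. In KO, Mtf2 (197 ± 12.1 TPM) stood above Suz12 (151 ± 15.7), and Ezh2 (59.3 ± 1.32) lay below Rnf2 (83.9 ± 4.23) and Jarid2 (73.0 ± 8.24). The order depends on the length used. With the longest coding transcript Ezh2 moved to the second place in WT, at 170 ± 1.17 TPM. Its range overlapped those of Suz12 and Mtf2. In KO, with that transcript, Ezh2 (105 ± 3.68 TPM) lay above Jarid2 (87.6 ± 8.55) and Rnf2 (80.2 ± 2.78), the reverse of the order above. Mtf2 (205 ± 9.80) stayed above Suz12 (127 ± 11.1).

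Cbx7 has paralogues that can take its place in canonical PRC1. By the gene-wise test Cbx2 (log2 fold change 0.72 ± 0.12 SE) and Cbx8 (1.58 ± 0.27) rose, and Cbx6 (-0.28 ± 0.12) did not pass. Cbx8 remained rare, with 19, 40 and 33 counts per WT library and 111, 117 and 97 per KO library.

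Paralogue choice was described by ratios and shares of the length-scaled levels. The ratio of Rnf2 to Ring1 was 12.3, 10.6 and 15.6 in WT and 6.04, 5.55 and 6.89 in KO, with no overlap (two-sided exact permutation p = 0.1, the smallest that 3 against 3 allow, 0.2 after adjustment over 4 measures). The ratio of Ezh2 to Ezh1 was 3.58, 2.76 and 5.87 in WT and 2.93, 2.33 and 3.02 in KO. These ranges overlapped (exact permutation p = 0.3, adjusted 0.4). Pcgf6 held 28.4 ± 3.18% of the summed TPM of the 6 PCGF genes in WT and 26.6 ± 3.78% in KO (SD, n = 3, exact permutation p = 0.7), and without KO replicate 2 the means differed by 0.0146 percentage points with the sign reversed. Within that family Pcgf1, a subunit of a variant PRC1, held 13.9 ± 1.54% in WT and 7.48 ± 1.02% in KO, and its transcript fell, with a log2 fold change of -0.96 ± 0.17 (SE) by the gene-wise test, and Bmi1 (also called Pcgf4) held 5.93 ± 0.391% and 9.53 ± 0.337%. The log2 fold change of Bmi1 was 0.62 ± 0.15 (SE, edgeR adjusted p = 0.00614).

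**Figure D4:**
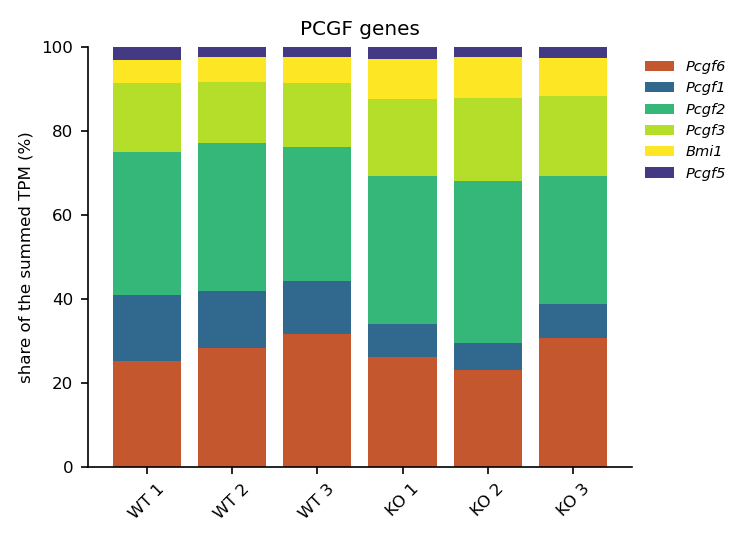
Share of each paralogue in the summed TPM of the 6 PCGF genes in each of the 6 libraries, in percent, with WT libraries on the left and KO libraries on the right. The share of Pcgf6 overlaps between the groups, whereas that of Pcgf1 is 13.9% in WT and 7.48% in KO on average.

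The other genes of both complexes were read from lists. Among 26 further PRC1 genes, all tested, 11 rose, 2 fell and 13 did not pass, with a median log2 fold change of 0.31 (12 rose and 4 fell with the replicate block). Over all genes tested, 17.1% rose and 12.6% fell, and 23.5% rose and 20.0% fell with the block. Beside Cbx2, Cbx8 and Bmi1, the genes that rose included Phc2, a polyhomeotic protein of canonical PRC1, from 12.7, 16.0 and 14.8 CPM in WT to 33.7, 39.6 and 31.6 CPM in KO, with a log2 fold change of 1.27 ± 0.14 (SE, edgeR adjusted p = 9.50e-05). Auts2, a subunit of a variant PRC1, had only 32, 36 and 24 counts per WT library and 67, 102 and 63 per KO library (log2 fold change 1.07 ± 0.27 SE, adjusted p = 0.00871). It was no longer called when any of the 6 libraries was left out. The genes that fell were Pcgf1 and Usp7, a deubiquitinase (-0.58 ± 0.11 SE). The call of Usp7 was lost without KO replicate 1 or 3 and with scaling by library size only (adjusted p = 0.0113), and that of Bmi1 without WT replicate 1 or 2 or any KO library.

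Of 9 further PRC2 genes, 8 were tested and the Ezhip entry was not analysed here. Lcor, whose locus encodes a PRC2-associated protein, rose (log2 fold change 1.09 ± 0.12 SE, adjusted p = 7.70e-05), as did Aebp2, an accessory subunit (0.46 ± 0.10). Rbbp4, the histone-binding subunit of PRC2, fell (-0.57 ± 0.11). The call of Rbbp4 was lost without WT or KO replicate 1, and that of Aebp2 without WT replicate 1 or any KO library. Of the 8, 3 were called, beside 29.7% of all genes tested, and the median of the 8 was -0.15. With the replicate number as a block, 5 of the 8 were called, 3 higher and 2 lower, beside 43.5% of all genes.

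Among 11 enzymes and partners that remove the Polycomb marks, 3 rose and 8 did not pass, beside 29.7% of all genes called, and with the replicate block 6 rose and 1 fell, beside 43.5% of all genes. The demethylases Kdm6a and Kdm6b did not pass the test (log2 fold changes -0.01 ± 0.10 and -0.12 ± 0.15 SE). Asxl3 (1.26 ± 0.28) and Mbd5 (0.71 ± 0.12), which belong to complexes of the deubiquitinase Bap1, rose, although Asxl3 was called only with all libraries or without WT replicate 3. Uty, the homologue of Kdm6a on the Y chromosome, was counted 0, 2 and 0 times in WT libraries and 776, 808 and 856 times in KO libraries. It passed the filter only through the KO libraries and so had to be called, and without it 2 of 10 erasers rose. Over the 45 PRC2, PRC1 and eraser genes tested, 16 rose and 3 fell (15 and 3 of 44 without Uty), and with the replicate block 21 rose and 7 fell. The shares over all genes tested were 17.1% higher and 12.6% lower, and 23.5% and 20.0% with the block. The 19 calls dropped to 10 without WT replicate 1 (8 higher and 2 lower). Without KO replicates 1, 2 and 3 they dropped to 8, 12 and 12 (7, 8 and 10 higher). Without replicate 2 of both groups 9 were left, 5 higher and 4 lower, beside 1720 higher and 1322 lower over all genes. Leaving out replicate 2 of both groups ended, among others, the calls of Aebp2, Pcgf1, Cbx2, Bmi1, Auts2, Asxl3 and Mbd5, with adjusted p from 0.0101 for Cbx2 to 0.0621 for Auts2.

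**Figure D5:**
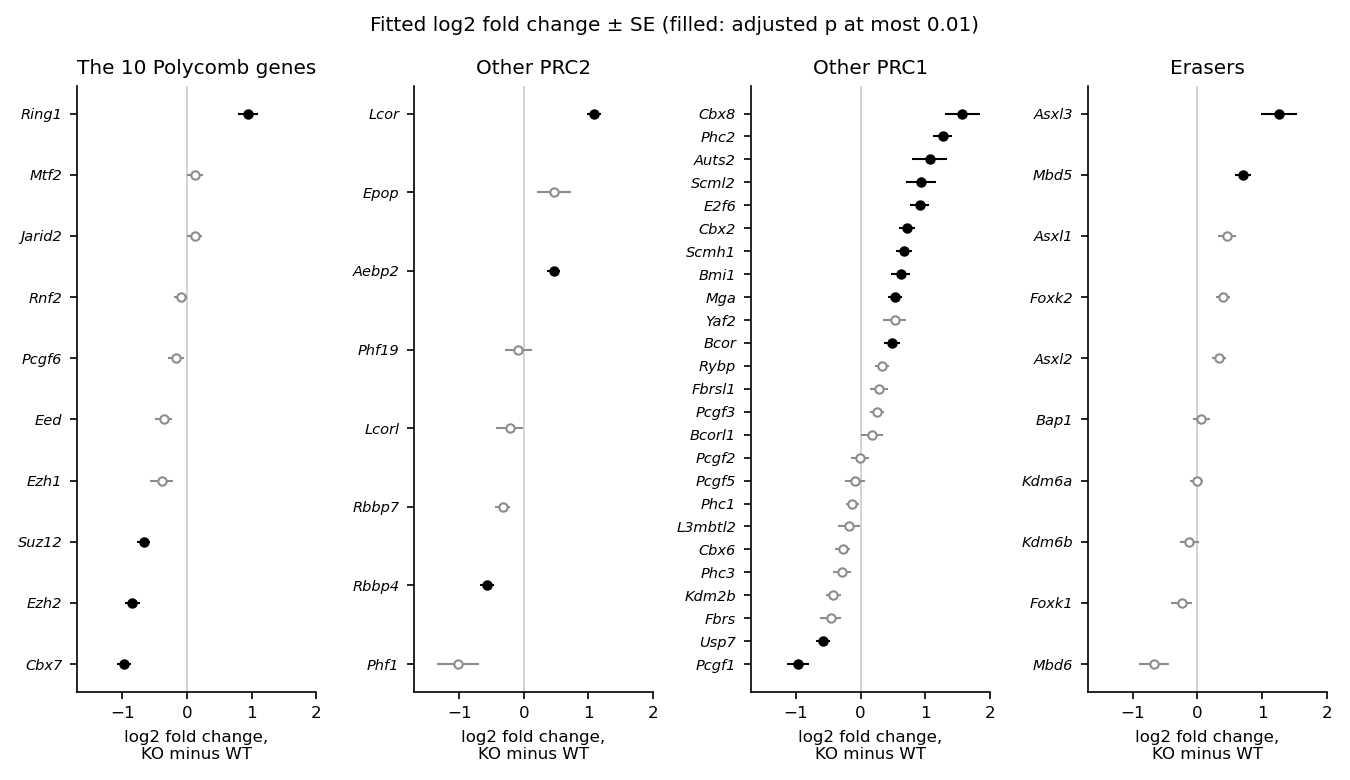
Fitted log2 fold change (KO minus WT) with its standard error for the 10 Polycomb genes, other PRC2 genes, other PRC1 genes and erasers, with filled points for an adjusted p of at most 0.01. Uty, near 0 counts in WT, and 1 of the other PRC1 genes are not drawn. The filled points of the 10 Polycomb genes lie at -0.98, -0.84 and -0.67 and at 0.94.

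Developmental regulators that Polycomb keeps silent in mESCs were mostly near 0. Of 41 such genes, 18 passed the filter on low counts, 6 rose, 2 fell and 10 did not pass, beside 29.7% of all genes called. A gene that passed the filter only through the KO libraries had to differ, so these counts say nothing of the whole list. The neural regulators Olig1 and Olig2 had no more than 4 counts in any WT library and 267, 260 and 293 (Olig1) or 236, 304 and 232 (Olig2) in KO. Foxa2, an endoderm regulator, was counted 1, 1 and 2 times in WT libraries and 36, 18 and 30 times in KO libraries. The genes that fell were Cdkn2a, a locus of cell-cycle inhibitors, from 10.6 to 2.79 CPM on average (log2 fold change -1.93 ± 0.20 SE, adjusted p = 6.87e-05), and Gata4, from 4.24 to 1.40 CPM (-1.59 ± 0.31, adjusted p = 0.00206), whose call was lost without WT replicate 1 or KO replicate 1 or 3.

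The genes whose pattern over the 6 libraries was most like that of Cbx7 were Slc5a11, a sugar transporter gene, Pcid2 and Ndufb7, a subunit of respiratory complex I. The root mean square differences of their centred log2 CPM from those of Cbx7 were 0.0507, 0.0577 and 0.0604 among 15730 genes compared. Their log2 fold changes were -0.965, -0.974 and -0.968, beside -0.978 for Cbx7. The measure includes the difference between KO and WT, so a like fold change is built into it. Shared regulation was not tested.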

How the data were processed

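Read counts per gene were deposited by the authors, who mapped single-end reads to GRCm38 with STAR 2.6.1b and counted them in GENCODE genes with HTSeq 0.12.4 on the reverse strand. These counts are whole and not normalised, and lines that name no gene (36.7 to 42.7% of all) were left out. The score deposited by the authors in the mESC and HEK293T site lists is the m6Aboost prediction, made after STAR 2.7.3a, UMI-tools 1.0.0 and PureCLIP peak calling with peaks kept in at least 2 replicates. The score of the heart lists has another scale, which is not stated in the sources used here, and served only for ranks. No list gives read numbers. The miCLIP2 libraries of Mettl3 KO mESCs were not analysed here.

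KO was compared with WT by the quasi-likelihood test of edgeR 4.0.16 under R 4.3.3, after filterByExpr and TMM scaling, and an adjusted p of at most 0.01 was a call. In simulated counts of this comparison the fit found 90% of genes changed 2-fold and 100% of those changed 4-fold, 100 of each. The changed genes were drawn from the more abundant ones and simulated with a common dispersion, so these shares do not cover genes with few counts. Same-numbered WT and KO libraries deviated together from their group means (correlations over genes of 0.122, 0.464 and 0.303). Differently numbered pairs gave -0.342 to 0.110, so the value of replicate 1 was close to the highest of these. A fit with the replicate number as a block is given where it changes a call. No 2 replicates agreed within sampling noise. CPM uses TMM-scaled library sizes, and TPM was computed from the counts with GENCODE M21 exon lengths. Sites were placed on GENCODE M21 or 44 with Python 3.11.15 and pandas 2.3.3, in exons on the same strand and in the longest coding transcript. Windows of 21 bases were read from GRCm38 and GRCh38. Ratios and shares were compared with SciPy 1.17.1 by two-sided exact permutation tests. Intervals of shares cover counting error only.

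The members, the gene lists and the tests were chosen with earlier results of these data known. Genes named are the 10 members, Mettl3, genes in a ratio or share, from each list the called genes without overlap of the groups that moved furthest (3 upward and 3 downward), and the 3 genes most like the most changed member. Scml2, Scmh1 and other called genes beyond this rule are counted and drawn but not described. One of the 4 ratios and shares and some genes, all counted in the totals, are not reported here. Genes named for lacking a call, markers and genes with many sites were chosen after their values were seen. The alternatives were DESeq2 1.42.0, other scalings and filters, an adjusted p of 0.05, the block, leaving out libraries, another transcript length, other site filters, RRACH in place of DRACH (its first base A or G) and other limits on window identity.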

Additional observations from a re-analysis of the deposited data

How the results depend on the processing

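The 4 called Polycomb transcripts kept their call and direction in every fit tried. The number of other Polycomb and eraser genes called (19) became 9 without replicate 2 of both groups (5 higher and 4 lower). It became 29 at an adjusted p of 0.05, and ranged from 8 to 21 when 1 library was left out. Target genes called (8) became 4 where each library had to hold 10 counts or more, and ranged from 7 to 8 without 1 library. All genes called (4669) became 3042 without replicate 2 of both groups, 7336 at an adjusted p of 0.05, and 2761 to 5412 without 1 library. Scaling by library size only shifted the median change over the genes tested by 0.10 (log2) and the share of calls that were higher from 57.5% to 71.0%. Among single genes, the sign reversed for Rnf2, Pcgf2 and Pcgf5 with library size only (0.0072, 0.094 and 0.025), and for Pcgf2 with filters of at least 1 count in all (0.022) or 10 in each library (0.016). Leaving out 1 library gave -0.15 to 0.12 for Pcgf2 and -0.17 to 0.035 for Pcgf5. None of these 3 genes was called in these fits. The replicate block, where Eed, Mettl3 and 6837 genes in all were called (4669 without it), also called Epop (adjusted p = 0.00866) and Asxl1 (0.000612), both higher in KO, and changed no call of the other genes named here from the lists. The share of Pcgf6 differed by -3.75 to 0.0146 percentage points without 1 library. With the longest coding transcript 5 of 10 members kept their rank in WT. In the upper part of each list by score, member sites numbered 20 in mESCs, 12 and 1 in heart at 1 µg and 300 ng, and 7 in HEK293T. The cause of these changes was not tested. Heart lists from 1 library each, and lists that carry no read numbers, limit what a missing site means.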

Other observations

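Other Polycomb genes held predicted sites as well. Of 26 further PRC1 genes, 20 held 103 exonic sites in mESCs and 19 held 115 in heart (1 µg of RNA). Mga, a DNA-binding subunit of the Pcgf6 complex, had 32 sites in mESCs and 26 in heart. In canonical PRC1, Phc1 had 8 and 2 sites and Cbx6 had 9 in each list. Epop, a PRC2 accessory subunit of mESCs, had 14 sites in mESCs and 0 in heart, whereas Lcor had 0 and 6. Among the erasers, Asxl1, a partner of the deubiquitinase Bap1, had 18 sites in mESCs and 25 in heart. Of the 41 developmental regulators, 2 held a site in mESCs and 8 in heart, where Gata4, Gata6, Hand2, Nkx2-5 and Tbx5, regulators of the cardiac lineage, held 6, 9, 6, 6 and 9. The lists give no depth, and genes that are not expressed cannot show a site.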
